A study of Mus musculus with 6 samples.

Results

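The surface markers by which mesenchymal stromal cells are recognised were followed in mouse mesenchymal stem cell cultures after terahertz irradiation. The 10 genes are Eng, Thy1, Nt5e, Cd44, Ly6a, Pdgfra, Pdgfrb, Itgb1, Vcam1 and Alcam. They were found as the probe sets, the groups of array probes that report 1 transcript, whose only gene symbol in the platform annotation is one of these names. The rule found 29 of 45037 tested probe sets, standing for 9 of the 10 genes. For Ly6a, the gene of the Sca-1 antigen, no value is reported, because no probe set carries its symbol here. Each gene was represented by its brightest probe set, that with the highest mean over all arrays, and its other probe sets are given beside it.

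The cultures came from a commercial supplier and all received dexamethasone (1 µM), rosiglitazone (1 µM), IBMX (100 µM), which blocks phosphodiesterases, and insulin (5 µg/ml), a mix that drives fat-cell formation and was given again 48 h before exposure. In each of 3 independent experiments 1 culture was irradiated for 2 h with pulses of 35 fs centred near 10 THz, at 1 kHz and 1 mW/cm2. A second culture beside it served as its control at the same 26 to 27 °C. The 6 Affymetrix arrays therefore form 3 pairs, and the labels give neither strain nor age of the animals, so p-values measure only the spread between these cultures.

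Mesenchymal stromal cells have no single defining surface protein and are recognised by a combination. Endoglin (Eng, CD105) is a co-receptor for TGF-beta family ligands, CD73 (Nt5e) turns extracellular AMP into adenosine, and Thy-1 (CD90) is a small protein held in the membrane by a lipid anchor. The PDGF receptors are tyrosine kinases that drive stromal growth and migration, CD44 binds hyaluronan, integrin beta 1 (Itgb1, CD29) pairs with many alpha chains to hold cells to the matrix, and VCAM1 and ALCAM (CD166) are adhesion molecules of the immunoglobulin family.

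All levels are log2 values and all differences are log2 differences. The median of the 45037 probe set means was 4.84, which serves here as a line between bright and dim probe sets. Levels of different probe sets are not compared as abundances, since probes differ in how strongly they bind. Of the 9 genes, 8 had a brightest probe set above that line, and Thy1 did not. By their brightest probe set, 11740 of all 18193 genes lay at or above it. Over all 29 marker probe sets, 22 lay at or above it, beside 22519 of all 45037, a share set by the choice of the median.

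Thy1 was the one marker gene whose brightest probe set was dim. Its single probe set read 3.85, 3.82 and 3.51 in the controls of experiments 1, 2 and 3, and 3.87, 4.07 and 3.93 in the irradiated cultures. All 6 values lay below 4.84, and the arms did not overlap, with the irradiated cultures higher by 0.02, 0.25 and 0.42 within the pairs. The difference was 0.23 ± 0.10 (SE of limma's fit, n = 3 pairs; limma adjusted p = 0.929). At so dim a signal the labelled cell type could not be checked by Thy1, and whether the signal stands above the array's background was not tested.

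Endoglin stood at 7.18, 7.17 and 7.42 in controls and at 7.43, 7.38 and 7.39 in irradiated cultures. The irradiated culture was higher by 0.25 and 0.21 in experiments 1 and 2 and differed by -0.03 in experiment 3, so the arms overlapped through control culture 3. The difference was 0.14 ± 0.09 (SE, n = 3 pairs; limma adjusted p = 0.929), and the other Eng probe set was at 0.01 ± 0.07.

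CD73 held the widest spread among the brightest probe sets of the 9 genes. Its brightest probe set read 8.44, 8.35 and 8.26 in controls and 8.40, 8.30 and 7.53 in irradiated cultures. Irradiated culture 3 stood apart from the other 5 arrays, and the remaining pairs differed by -0.04 and -0.05. The difference over the pairs was -0.27 ± 0.15 with a 95% interval from -0.64 to 0.09 (limma adjusted p = 0.929), and without replicate 3 it was -0.04. The second Nt5e probe set read 6.09, 6.27 and 6.13 in controls and 6.08, 6.09 and 6.03 in irradiated cultures, and the third, a dim one, read 4.35, 4.31 and 4.28 against 4.40, 4.55 and 4.33. Neither set irradiated culture 3 apart, with experiment 3 differences of -0.10 and 0.05 and fitted differences of -0.10 ± 0.08 and 0.11 ± 0.08. In the same pair the spike-in control probe sets averaged 11.63 without and 11.25 with irradiation, while the other 4 arrays held 11.06 to 11.14. The gap between the actin control probes at the 3' and the 5' end, which widens as RNA breaks down, was 0.72 and 0.62 in that pair. On the other 4 arrays this gap was 0.61 to 0.76, so the pair did not stand out by it. The part of the spike-in level and of this gap in the Nt5e value was not tested.

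Both PDGF receptors were well above the line. Pdgfra read 9.47, 9.46 and 9.11 in controls and 9.51, 9.41 and 9.31 in irradiated cultures, a difference of 0.06 ± 0.08 (SE, n = 3 pairs). Experiment 3 held the lowest value in each arm. A second Pdgfra probe set read 7.33, 7.23 and 7.11 in controls and 7.45, 7.31 and 7.20 in irradiated cultures, higher in each irradiated culture by 0.12, 0.08 and 0.09, and the third had a difference of 0.03 ± 0.09. Pdgfrb, the receptor that also marks pericytes, read 10.97, 10.69 and 10.83 in controls and 10.97, 10.66 and 10.97 in irradiated cultures, a difference of 0.04 ± 0.08. Here experiment 2 was the lowest in both arms, and pair differences stayed between -0.03 and 0.14. The other Pdgfrb probe set read 7.39, 7.20 and 7.53 in controls and 7.64, 7.17 and 7.52 in irradiated cultures, again lowest in experiment 2. Limma adjusted p was 0.962 for Pdgfra and 0.975 for Pdgfrb.

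The matrix receptors were as close between arms. CD44 read 10.86, 10.89 and 10.92 in controls and 10.78, 11.00 and 10.74 in irradiated cultures, with the irradiated arm on both sides of the controls. Its difference was -0.05 ± 0.09 (SE, n = 3 pairs; limma adjusted p = 0.968), and its other probe sets were at 0.06, 0.09 and 0.13, so the sign depended on the probe set. Integrin beta 1 read 10.71, 10.84 and 10.83 in controls and 10.99, 10.88 and 10.70 in irradiated cultures. Its pair differences were 0.28, 0.04 and -0.13, and the second brightest Itgb1 probe set ran the same way at 0.21, 0.07 and -0.03. The fitted difference was 0.06 ± 0.10 (limma adjusted p = 0.968). Of the 6 Itgb1 probe sets, 3 were dim with means of 2.58 to 3.73, and their differences were 0.05, 0.08 and -0.09.

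The adhesion molecules of the immunoglobulin family also had no direction shared by the 3 experiments on their brightest probe sets. Vcam1 read 11.02, 11.21 and 10.93 in controls and 11.15, 10.89 and 11.02 in irradiated cultures. In experiment 2 the irradiated culture was lower on all 3 Vcam1 probe sets, by -0.32, -0.28 and -0.34. In experiments 1 and 3 it was higher on all of them, by 0.04 to 0.30. These probe sets report the same RNA samples, so they are no replicates of the condition, and the fitted differences were -0.03, -0.04 and 0.03 (limma adjusted p from 0.978 to 0.986). Alcam read 10.23, 10.18 and 10.28 in controls and 10.35, 10.20 and 10.13 in irradiated cultures, a difference of 0.00 ± 0.09 (limma adjusted p = 0.993). One bright Alcam probe set had arms that did not overlap, with 9.59, 9.54 and 9.52 in controls and 9.75, 9.63 and 9.66 in irradiated cultures. It gave a difference of 0.13 ± 0.07, while the other 3 bright ones were at 0.00, 0.04 and 0.06.

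**Figure D1:**
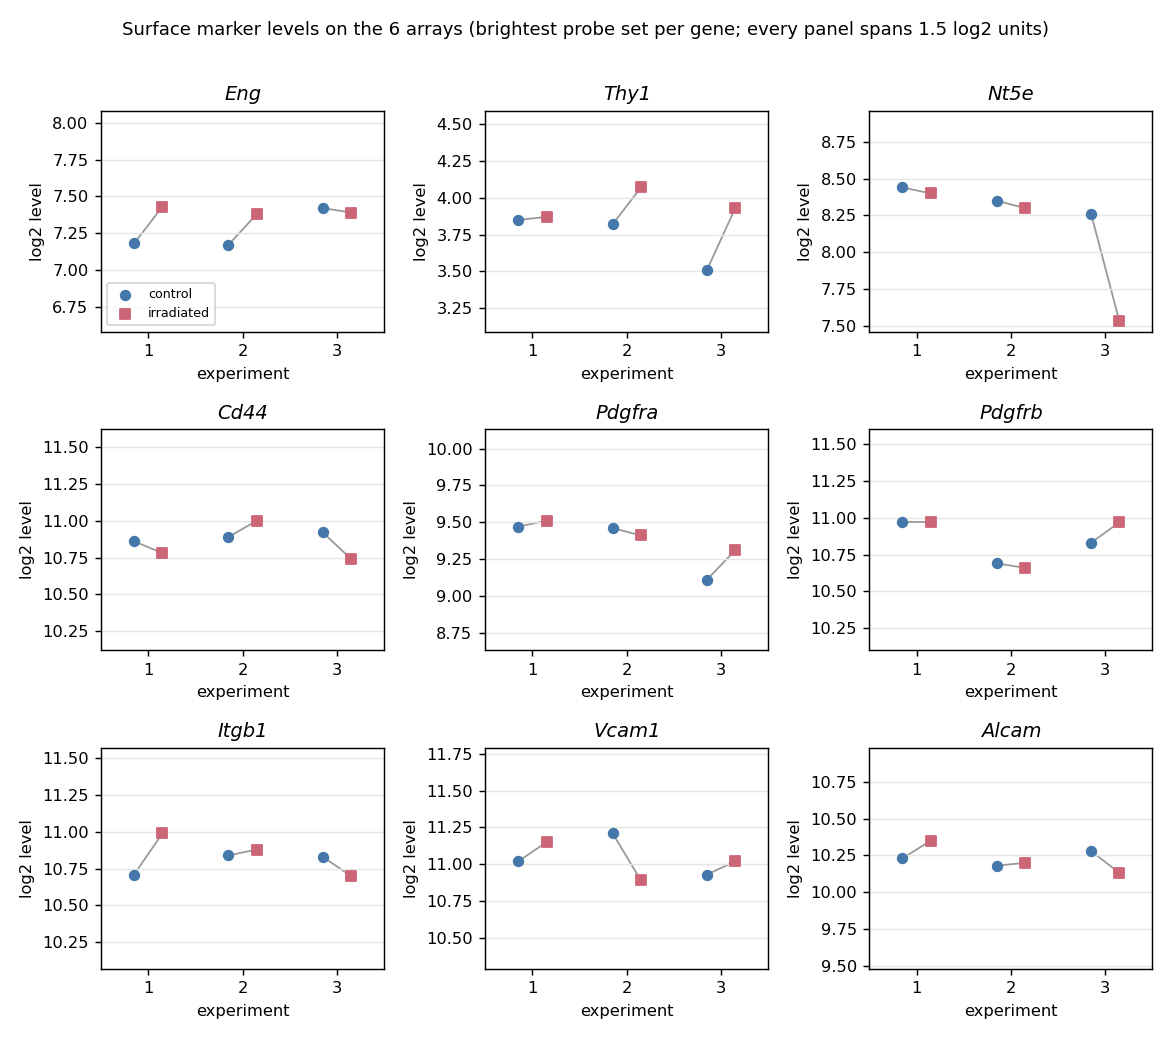
Log2 level of the brightest probe set of each of the 9 measured surface marker genes (vertical axes, in log2 units) against experiment, with control cultures as circles, irradiated cultures as squares and lines joining the pairs. The irradiated Nt5e value of experiment 3, 7.53, stands apart, and Nt5e runs down and Thy1 up in all 3 pairs, while the other 7 genes have no direction shared by all pairs.

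None of the 29 probe sets passed between irradiated and control cultures. By limma 0 of 29 had an adjusted p under 0.05, where the share over all probe sets was 0%, and 0 of 29 had an unadjusted p under 0.05, where the share was 4.97%. The lowest unadjusted p was 0.059, for Thy1. Differences ran from -0.27 to 0.23, with 22 positive and 7 negative, beside 23007 positive and 21458 negative of all 45037 probe sets. Their median was 0.057, beside 0.003 over all probe sets. Several of the 29 report the same gene from the same RNA samples. Of the 9 brightest probe sets, 5 were positive and 4 negative. Over these 9 the median was 0.037, and it was -0.035 without replicate 1. Within the pairs of experiments 1, 2 and 3 the median of those 9 was 0.04, 0.02 and -0.03, and that of the 29 was 0.12, 0.03 and -0.02. Pairs that all ran the same way were found for 8 of 29 (27.6%), namely all 3 of Nt5e, 2 of Alcam and 1 each of Thy1, Pdgfra and Itgb1, against 23.8% of all probe sets, and arms without overlap in 2 of 29 (6.9%), against 6.73%, so both shares lay near the background.

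The precision limits what such a result leaves possible. Of the 29 probe sets, 28 had a 95% interval that stayed within 1.5-fold either way (96.6%, against 97.2% of all probe sets) and all 29 stayed within 2-fold. The exception at 1.5-fold was the brightest Nt5e probe set.

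**Figure D2:**
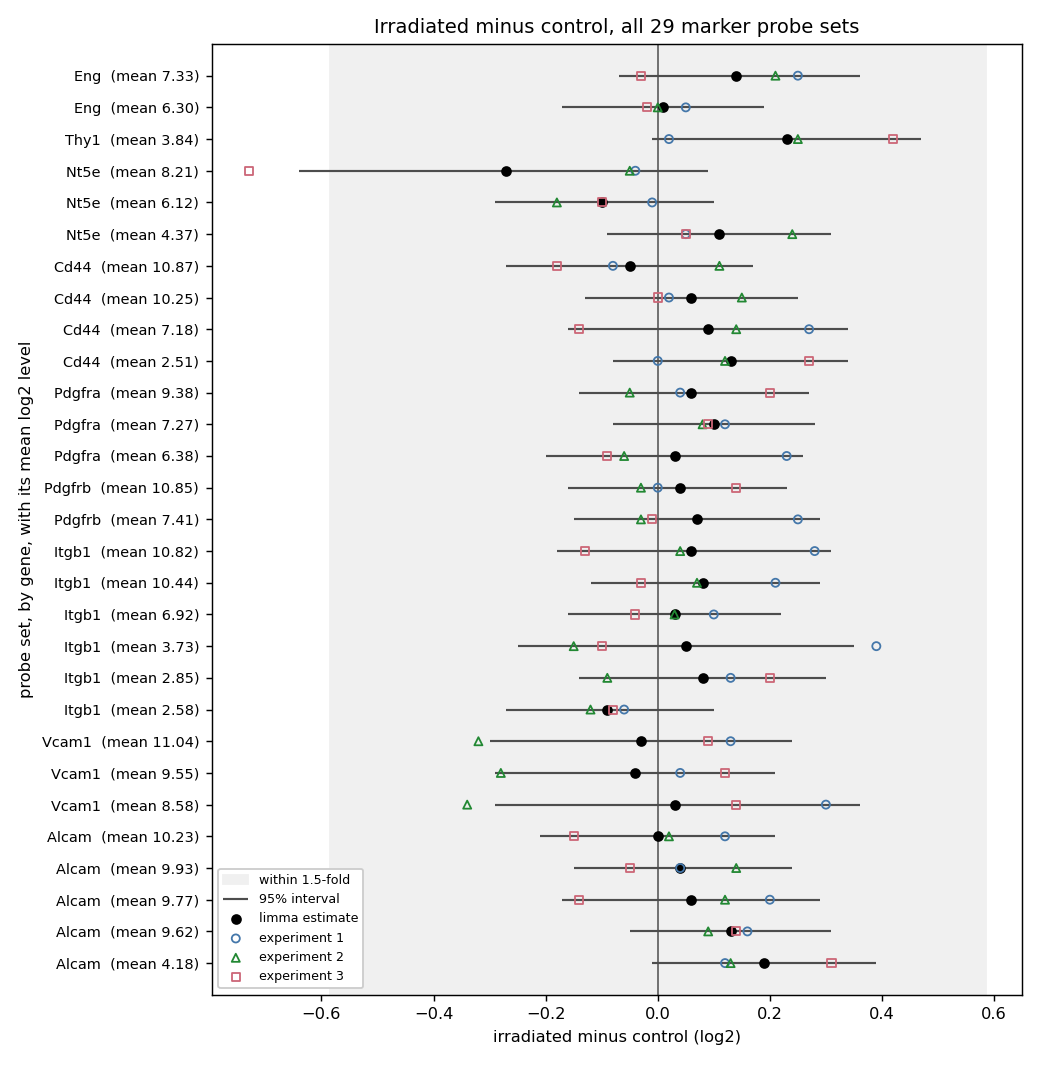
Irradiated minus control on the log2 scale (horizontal axis) for all 29 probe sets (rows, by gene with their mean level), with limma's estimate as a filled point, its 95% interval as a line and the 3 pair differences as open symbols. Every interval contains 0, and that of the brightest Nt5e probe set, from -0.64 to 0.09, is the one that leaves the shaded 1.5-fold band.

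Markers of other cell types are given beside these values. All 7 measured fat-cell markers had negative differences, with a median of -0.323, and their mean level was 11.40 to 11.47 in controls and 11.08 to 11.21 in irradiated cultures. Of 10 macrophage and leukocyte markers 9 were positive, with a median of 0.078 and mean levels of 9.77 to 10.05 and 9.94 to 10.14. None of these passed limma's adjusted test, and 4 of the 7 fat-cell markers and 0 of the 10 leukocyte markers had an unadjusted p under 0.05, beside 4.97% of all probe sets and 4.14% of all genes by their brightest probe set. The brightest were Fabp4, the fatty acid carrier of fat cells, at 14.36 to 14.48, and lysozyme (Lyz2), at 14.15 to 14.25. Macrophages also make CD44, integrin beta 1 and VCAM1, and the part of these cells in the marker values was not tested. In a mixed culture, fewer cells of a type and less RNA per cell cannot be told apart. All 10 of 10 macrophage and leukocyte markers and 7 of 7 fat-cell markers lay at or above the line, beside 11740 of all 18193 genes. T and B cell markers (mouse T cells carry Thy-1) had 3 of 7 probe sets at or above the line, and endothelial markers 3 of 10.

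The other cell type lists had median differences of 0.087 (T and B cells), 0.085 (endothelial), 0.065 (smooth muscle and pericyte), 0.037 (epithelial), -0.063 (chondrocyte), -0.077 (osteoblast) and -0.107 (neural). None of their members passed between the arms. Their brightest genes were Cd4 (5.61 to 5.88), Egfl7 (6.34 to 6.66), Acta2 (12.40 to 12.91), Epcam (7.37 to 7.71), Comp (7.26 to 7.75), Ibsp (9.70 to 10.27) and S100b (7.11 to 7.77), in the same order of lists. The brightest gene does not stand for its list. At or above the line were 5 of 8 smooth muscle and pericyte markers and 1 of 6 epithelial ones. The same held for 4 of 6 chondrocyte, 3 of 5 osteoblast and 4 of 5 neural markers.

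On their brightest probe sets, Pdgfra, Pdgfrb and others of the 9 genes differed by more in some comparisons of experiments than between the arms, which was not tested. This is no trait of the markers. Over all genes the median absolute difference was 0.063 between the arms and 0.13 between experiments 3 and 1, beside 0.063 and 0.10 over the 9 brightest marker probe sets. Between the experiments, 1 of 29 probe sets passed the test. Experiment 3 minus experiment 1 passed for 1 of 29 marker probe sets (3.45%) by limma at adjusted p 0.05, against 3.05% of all probe sets, which is no departure from the background. Among the 22 bright marker probe sets it was 0, against 5.09% of bright probe sets. The 1 that passed was a dim Alcam probe set, which read 3.75 and 3.87 in experiment 1, 4.0 and 4.13 in experiment 2, and 4.52 and 4.83 in experiment 3 (control first). It differed by 0.86 ± 0.10 (SE, 2 arrays per experiment; limma adjusted p = 0.012), and the 4 bright Alcam probe sets were at -0.20 to -0.01. Leaving out any one of the 6 arrays kept the difference at 0.77 to 0.96 while the adjusted p was 0.15 to 0.40, in fits with 1 residual degree of freedom that called 0 of all probe sets.

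Experiment 2 minus experiment 1 and experiment 3 minus experiment 2 passed for 0 of 29, against 0.52% and 0.0355% of all probe sets. At an unadjusted p under 0.05 by limma the 3 comparisons held 4, 6 and 3 of 29 marker probe sets (experiments 2 against 1, 3 against 1, and 3 against 2), against 9.89%, 19.1% and 9.89% of all. Pdgfrb was lower in experiment 2 than in experiment 1 on both of its probe sets, by -0.30 and -0.33 (adjusted p = 0.40 and 0.41), and by -0.35 to -0.24 and -0.47 to -0.19 with 1 array left out. The brightest Pdgfra probe set was at -0.28 in experiment 3 against 1 (95% interval from -0.53 to -0.03, limma adjusted p = 0.22), or -0.38 to -0.18 with 1 array left out. The other Pdgfra probe sets were at -0.24 and 0.00 there. Nt5e was at -0.52 (interval from -0.97 to -0.08, adjusted p = 0.20), a value that rests on irradiated culture 3, as the difference between the arms does. Without that array it was -0.18. The remaining brightest probe sets lay between -0.14 and 0.10 in that comparison. The median absolute difference was 0.10 over the 9 brightest probe sets and 0.13 over all genes.

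Among the brightest probe sets, Nt5e spread over 0.91 and Alcam over 0.22 across the 6 arrays, the widest and the narrowest. The dim Alcam probe set spread over 1.08. The stretches upstream of Nt5e and Alcam are shown. They are the 250 bases before the RefSeq start of each gene in GRCm38.p6, at chr9:88327359-88327608 on the plus strand for Nt5e and chr16:52453082-52453331 on the minus strand for Alcam, written in the direction of transcription. Capitals mark GC boxes (GGGCGG on either strand), and overlapping matches run together.
Nt5e: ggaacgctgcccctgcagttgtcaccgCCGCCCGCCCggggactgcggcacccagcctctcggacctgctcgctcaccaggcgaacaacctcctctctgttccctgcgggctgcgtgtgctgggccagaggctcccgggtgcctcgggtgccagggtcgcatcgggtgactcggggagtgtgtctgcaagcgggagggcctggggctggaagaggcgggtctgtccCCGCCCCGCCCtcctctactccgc
Alcam: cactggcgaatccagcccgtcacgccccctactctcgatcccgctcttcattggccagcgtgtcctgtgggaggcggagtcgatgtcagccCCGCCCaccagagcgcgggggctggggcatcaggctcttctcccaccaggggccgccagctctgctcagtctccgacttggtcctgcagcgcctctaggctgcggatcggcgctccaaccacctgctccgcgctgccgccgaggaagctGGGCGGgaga

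Both are rich in G and C, at 72.0% for Nt5e and 69.2% for Alcam against a median of 52.4% over 32851 windows of the same length. The GC box was matched 4 times in Nt5e, with overlaps, and 2 times in Alcam, and 32.7% of all windows hold it. The TATA box (TATAAA, 12.4% of windows), the cAMP response element (TGACGTCA, 1.55%) and the AP-1 motif (TGANTCA, 6.75%) were matched in neither, searched on both strands. Windows for 6 of the 10 genes were used, and none for Thy1, Ly6a, Pdgfrb and Vcam1. The windows not shown held less G and C, at 68.0% (Itgb1), 62.4% (Eng), 56.4% (Cd44) and 54.4% (Pdgfra). The GC box was matched 1 time in Itgb1 and 0 times in Eng, Cd44 and Pdgfra. A match describes letters only, and no measured value bears on these windows beyond the RNA levels.

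The ligands and partners of the markers were followed on lists of 4 to 21 genes, and 0 of their members passed between the arms by limma. At an unadjusted p under 0.05 only the integrin list held any, 2 of 18 (11.1%, beside 4.14% of all genes). They were Itga7, the laminin receptor chain of muscle, at -0.32 ± 0.09 with pair differences of -0.26, -0.52 and -0.18, and Itga6, another laminin receptor chain, at -0.32 ± 0.12 with -0.45, 0.00 and -0.52. The list median was 0.003, with 9 positive and 9 negative. Itgb8, a partner of the alpha v chain, was at -0.09 ± 0.19, and at -0.67 in experiment 3 against 1 (limma adjusted p = 0.20).

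Among endoglin's partners, 9 of 11 were positive with a median of 0.020. The co-receptor Tgfbr3 was at 0.14 ± 0.10 and the BMP receptor Bmpr2 at 0.01 ± 0.08, and the ligand gene Gdf2 at 0.11 ± 0.09. Around CD73, 7 of 11 genes were measured with a median of -0.013, and the nucleoside transporter Slc29a1 was at 0.14 ± 0.10, adenosine deaminase (Ada) at -0.07 ± 0.08 and Entpd1 (CD39), which acts upstream of CD73, at 0.06 ± 0.11. The 4 PDGF ligands had a median of -0.005, with Pdgfa at -0.06 ± 0.08, Pdgfb at 0.03 ± 0.07 and Pdgfd at -0.03 ± 0.11. The immunoglobulin adhesion list had a median of 0.047 over 11 genes, with Icam1 at 0.19 ± 0.13, Cadm1 at 0.12 ± 0.09, Mcam at 0.05 ± 0.08 and Itgb7, a chain of a VCAM1 receptor, at 0.07 ± 0.08. In the Ly6 family 8 of 12 genes were measured with a median of -0.017, and Ly6e, a relative of Ly6a, was at 0.10 ± 0.08 and Cd59a, which shields cells from complement, at 0.04 ± 0.08.

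Other stromal surface proteins had a median of -0.027 over 20 measured genes, 9 positive and 11 negative. Cd200 was at -0.25 ± 0.13 and, like Nt5e, took its value from experiment 3, with pair differences of -0.04, -0.07 and -0.63. Lepr, the leptin receptor of marrow stromal cells, was at -0.12 ± 0.09 between the arms and at -0.49 in experiment 3 against 1 (limma adjusted p = 0.075). Podoplanin (Pdpn) was at -0.14 ± 0.17 and 0.83 in the same comparisons (adjusted p = 0.10 for the second).

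On the hyaluronan list, 8 of 12 genes were positive between the arms with a median of 0.053, among them the receptor Hmmr at 0.16 ± 0.09 and moesin (Msn), which ties CD44 to the cell cortex, at 0.11 ± 0.08. Between experiments 3 and 1, 2 of the 12 passed (16.7%, beside 3.13% of all genes). Has1, a hyaluronan synthase, averaged 5.81, 7.79 and 7.99 in experiments 1, 2 and 3, and was higher by 2.18 in experiment 3 than in experiment 1 (limma adjusted p = 0.036). Tnfaip6, which makes the hyaluronan-binding protein TSG-6, averaged 6.46, 7.66 and 8.23, higher by 1.78 (adjusted p = 0.011). Has2, another hyaluronan synthase, went the other way. It averaged 9.16, 9.38 and 8.45 and was at -0.71 in experiment 3 against 1 (limma adjusted p = 0.11). The median of the whole list in that comparison was -0.19, beside -0.02 over all genes. With 1 array left out Has1 stayed at 1.49 to 2.86 and Tnfaip6 at 1.5 to 2.06. In that comparison 0 of the members of the other 7 partner lists passed. Of the cell type lists 3 genes did, each higher in experiment 3, beside 3.13% of all genes. These were 1 of 6 chondrocyte, 1 of 5 neural and 1 of 10 endothelial markers, and the other cell type lists held none. Here 1 gene does not stand for its list, and the medians of these lists in that comparison were 0.145, 0.10 and 0.08. Sox9, a regulator of cartilage formation, was higher by 2.71 (limma adjusted p = 0.0022) and Tubb3, a neuronal tubulin, by 1.99 (adjusted p = 0.0068). The endothelial Pecam1, dim at a mean of 2.92, was higher by 0.55 (adjusted p = 0.049). Between the arms, the pair differences of Has1 were -0.12, 0.54 and -1.16. The brightest Cd44 probe set averaged 10.82, 10.95 and 10.83 in the 3 experiments. It differed by 0.01 between experiments 3 and 1, with a 95% interval from -0.25 to 0.27. Another bright Cd44 probe set averaged 6.97, 7.25 and 7.31, higher by 0.34 in experiment 3 than in 1 (interval from 0.03 to 0.64, limma adjusted p = 0.22). The remaining bright one was at -0.01 and the dim one at -0.30, so the Cd44 difference depended on the probe set. The difference between the Cd44 and Has1 changes was not tested. Plaur, the urokinase receptor of the Ly6 superfamily, was at 1.18 (adjusted p = 0.055). Experiments differ in everything done on separate occasions, which cannot be told apart.

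**Figure D3:**
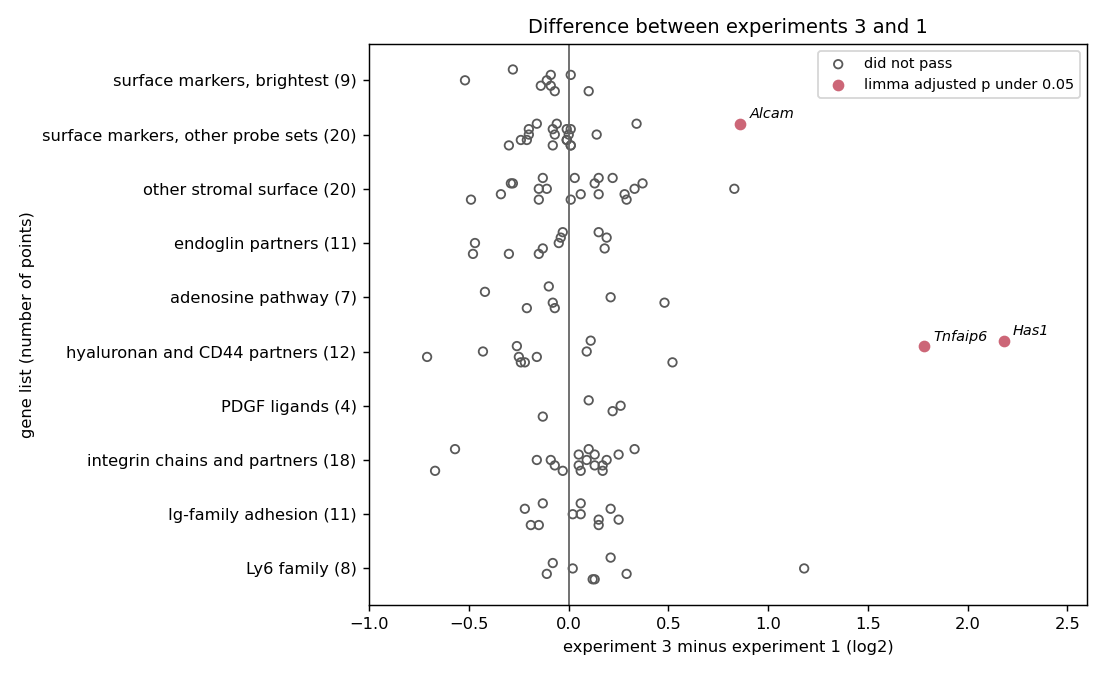
Experiment 3 minus experiment 1 on the log2 scale (horizontal axis) for the marker probe sets and for the brightest probe set of each gene in 8 partner lists (rows), with filled points for limma adjusted p under 0.05. The brightest marker probe sets lie between -0.52 and 0.10, the filled marker point is the dim Alcam probe set at 0.86, and Tnfaip6 and Has1 lie at 1.78 and 2.18.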

How the data were processed

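The authors made the deposited log2 values by RMA, per the submitters' processing notes, which also name affy and limma with no versions or roles. They cover 45101 probe sets and are rounded to 2 decimals. The base is not stated and was taken as 2, the scale of RMA. RMA as usually run equalizes probe signals between arrays, which hides any shift common to the whole array. Scanner files were not used here. Affymetrix controls (64 probe sets) did not enter the tests.

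Limma 3.58.1 in R 4.3.3 (lmFit, eBayes) was fitted to all 45037 probe sets with the arm and the experiment as fixed terms. Contrasts between experiments came from the same fit. P-values are two-sided, adjusted by Benjamini-Hochberg over all probe sets of a comparison, with a threshold of 0.05 and no filter, and the code was tested on simulated data. The series design gives the pairing, and deviations of paired arrays from their group means correlated at r = 0.63, 0.14 and 0.50. The highest correlation of each irradiated array with a control of another experiment was -0.08, 0.15 and -0.01, so in experiment 2 the pair did not stand out. Precision is limited by 3 arrays per arm.

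Genes were named from the platform annotation, in which 34945 tested probe sets have 1 symbol, 932 several and 9160 none. They stand for 18193 genes. The members, lists and alternatives were chosen with earlier results of these data known. All 10 markers are named. From each partner list the rule names the 2 bright genes with the smallest unadjusted p between the arms and the 2 that differ most between experiments (a gene can be both), and from cell type lists the brightest gene. Outside this rule, Sox9, Tubb3 and Pecam1 are named because they passed between experiments, and Has2 is given beside Has1. Promoter windows are RefSeq's, GRCm38.p6. Alternatives were a fit without the block, a random block, quantile normalization, median centring, bright probe sets only, an intensity trend, array weights, the mean of a gene's probe sets, no arm term and leaving out experiments or arrays.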

Additional observations from a re-analysis of the deposited data

How the results depend on the processing

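No alternative gave a call between the arms, for all probe sets or for the markers. The fit with no replicate block gave 0 calls, as did the random replicate block, and adjusted p of the 9 markers stayed between 0.895 and 0.999 by limma over all settings. Between the arms, 9 of 98 alternative marker values changed sign, none of them called. These were Itgb1 without replicate 1 (-0.05), Vcam1 without replicate 2 (0.11), Cd44, Pdgfra, Pdgfrb and Alcam without replicate 3 (0.01, -0.01, -0.02 and 0.07), Cd44 and Alcam with the mean of their probe sets (0.06 and 0.08), and Alcam, whose difference lies just below 0, with array weights (0.02). Leaving out 1 experiment, these genes ranged from -0.13 to 0.01 (Cd44), -0.01 to 0.12 (Pdgfra), -0.02 to 0.07 (Pdgfrb), -0.05 to 0.16 (Itgb1), -0.12 to 0.11 (Vcam1) and -0.07 to 0.07 (Alcam). The median difference of the markers ran from -0.035 without replicate 1 to 0.075 without replicate 2. Thy1 has no value on bright probe sets alone.

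Between experiments the counts depended on the setting. Calls of experiment 2 against 1 numbered 234, and 374 on bright probe sets alone and 670 with an intensity trend. For 3 against 1 they were 1374, 2513 and 3534, and the Alcam call was not among them on bright probe sets alone (0 marker calls), where it is not tested. For 3 against 2 they were 16, 64 and 275, and 52 with no arm term. Leaving out any 1 array gave 0 calls in each comparison, though the Alcam difference stayed at 0.77 to 0.96, with marker calls from 0 to 0, on 1 residual degree of freedom and with the lone array of an experiment taken to vary like the others.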
